A study of Rattus norvegicus with 8 samples.

Results

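Kruppel-like factors were followed in the residual right kidney of male rats, as 10 genes (Klf2, Klf3, Klf4, Klf5, Klf6, Klf9, Klf10, Klf11, Klf13 and Klf15) out of 19868 genes tested. Members were found by gene symbol, which a RefSeq accession on each array probe gave, and they were read by 19 of the 41012 gene probes. The family was chosen on the log2 difference between nephrectomized and sham rats, already known from earlier results of these arrays, so that difference is described here for its members and supports no test of them. All rats were F344/NSlc, an inbred strain, and aged 10 weeks. The sham group was 4 rats that kept both kidneys after a sham operation, and the nephrectomized group was 4 rats that had lost the other kidney by unilateral nephrectomy. The series text puts sampling 2 days after surgery, whereas the source labels give day 1 for the sham and day 2 for the nephrectomized rats. Total RNA of each kidney was hybridised to its own 1-colour Agilent array, and on both slides sham rats lay at positions 1 and 2 and nephrectomized rats at positions 3 and 4. Surgery, labelled day and position on the slide therefore cannot be told apart.

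Kruppel-like factors are transcription factors that bind GC-rich and CACCC sequences through a cluster of zinc fingers at the carboxyl end. The rest of the protein sets their action: Klf3 recruits the corepressor CtBP, Klf2, Klf4, Klf5 and Klf6 act largely as activators, and Klf9, Klf10, Klf11 and Klf13 can recruit the corepressor Sin3. In the kidney, Klf15 is known for podocyte differentiation and, in liver and muscle, for amino acid catabolism, and both Klf15 and Klf9 are known targets of the glucocorticoid receptor and of the circadian clock.

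Klf15 and Klf9, 2 of the 10 members, were called at the threshold of 0.05 (limma, adjusted by Benjamini and Hochberg's method over all genes), and both were lower after nephrectomy. The same test called 3.59% of all genes, 1.02% lower and 2.57% higher. The other 8 members did not pass. The log2 difference was negative in 8 of the 10 members and in 50.1% of all genes. Over the 10 members the median log2 difference was -0.07, against 0 over all genes, and the values ran from -0.87 (Klf15) to 0.28 (Klf5). The values of the nephrectomized and sham rats did not overlap for Klf15 and Klf9, both lower. Of all genes, 5.09% were lower and 7.59% higher without overlap. Nothing is read from these counts, because this contrast was known when the family was chosen.

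The promoters of Klf15 and Klf9 are shown because these members carried the difference. Each is the stretch of 250 bases before the annotated start on the gene's own strand, 5′ to 3′, from RefSeq (build GRCr8). Klf15 lies at chr4:124522765-124523014 on the plus strand and Klf9 at chr1:230126396-230126645 on the plus strand. Capitals mark matches on either strand to CACCC (the core of a Kruppel-like factor site, read as GGGTG on the other strand) or to the E-box CACGTG, to which clock activators bind.
Klf15: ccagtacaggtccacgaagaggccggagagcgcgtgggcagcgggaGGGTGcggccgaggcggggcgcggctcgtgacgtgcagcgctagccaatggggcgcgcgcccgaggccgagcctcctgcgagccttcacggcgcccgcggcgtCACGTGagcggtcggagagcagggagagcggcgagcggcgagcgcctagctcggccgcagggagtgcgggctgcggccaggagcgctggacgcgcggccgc
Klf9: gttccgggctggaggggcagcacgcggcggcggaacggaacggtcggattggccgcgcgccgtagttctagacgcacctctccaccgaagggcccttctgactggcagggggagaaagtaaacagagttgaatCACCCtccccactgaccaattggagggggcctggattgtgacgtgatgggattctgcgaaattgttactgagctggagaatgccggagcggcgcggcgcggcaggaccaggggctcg
The Klf15 window held CACGTG once, 101 bases before the start. At least 1 match, at any position, was in 5.59% of 33469 promoters of this length. The Klf9 window held no CACGTG, and 3 matches to CCAAT, of which the pair nearest the start lay on opposite strands 102 and 99 bases before it and overlapped. CACCC was found once in each, 204 bases before the start in Klf15 and 117 in Klf9, and in 49.2% of all promoters. TGACG, the short form of the cAMP response element, was found 2 times in Klf15 and 1 time in Klf9, and in 18.2% of all promoters. The palindromic glucocorticoid response element, searched on both strands, was in none of the 7 member promoters searched (Klf3, Klf4, Klf5, Klf6, Klf9, Klf11 and Klf15), and in 0.373% of all promoters. Matches are descriptions of letters, and a window without one says nothing of binding elsewhere. Klf15 and Klf9 were also 77.2% and 63.6% G or C here, with 41 and 23 CpG pairs, against medians of 51.2% and 5 over all promoters.

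Klf15, the activator of amino acid catabolism, had the largest difference among the members. Levels are log2 processed intensity minus the array's 75th percentile, so that 0 is the signal at that percentile. In sham rats 1 to 4 the Klf15 level was 4.42, 4.59, 4.71 and 4.52, and in nephrectomized rats 1 to 4 it was 3.74, 3.66, 3.67 and 3.68. Every nephrectomized rat lay below every sham rat. The nephrectomized values were also close to each other (SD 0.04, n = 4), with the sham values more spread (SD 0.12, n = 4). On the linear scale the probe ran from 21.4 to 26.1 times the 75th percentile signal in sham rats and from 12.6 to 13.4 times in nephrectomized rats. Klf15 fell by 0.87 on the log2 scale (SE 0.07, 95% interval -1.03 to -0.71), to 54.7% of the sham level (48.8% to 61.2%). Klf15 had 1 probe, so no second probe checks it. A difference this low or lower was held by 0.539% of all genes. Without sham rat 1, the array with the fewest probes well above background, or without any other single rat, the log2 difference stayed between -0.92 and -0.82, and it passed the threshold each time. These fits reuse the same rats and the contrast known when the family was chosen, so they describe the value and do not test it.

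Klf9, which glucocorticoids and thyroid hormone induce, was read by 2 probes, both lower after nephrectomy. On the brighter probe the sham rats had levels of 4.41, 4.48, 4.57 and 4.44 and the nephrectomized rats 3.95, 4.06, 3.89 and 4.03. On the other probe the sham rats had 1.88, 1.99, 1.86 and 1.82 and the nephrectomized rats 1.18, 1.58, 1.11 and 1.39. The groups did not overlap on either probe, and nephrectomized rat 3 was the lowest and nephrectomized rat 2 the highest of its group on both. The log2 difference was -0.49 (SE 0.06, 95% interval -0.64 to -0.34) on the brighter probe, or 71.2% of the sham level (64.2% to 78.9%). It was -0.57 (SE 0.11) on the other probe, within the interval of the first. Leaving out single rats gave log2 differences from -0.52 to -0.46, all past the threshold, again as a description of a contrast already known. Among single probes, 4.92% were lower without overlap, and 3.24% were called, 0.901% lower.

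**Figure D1:**
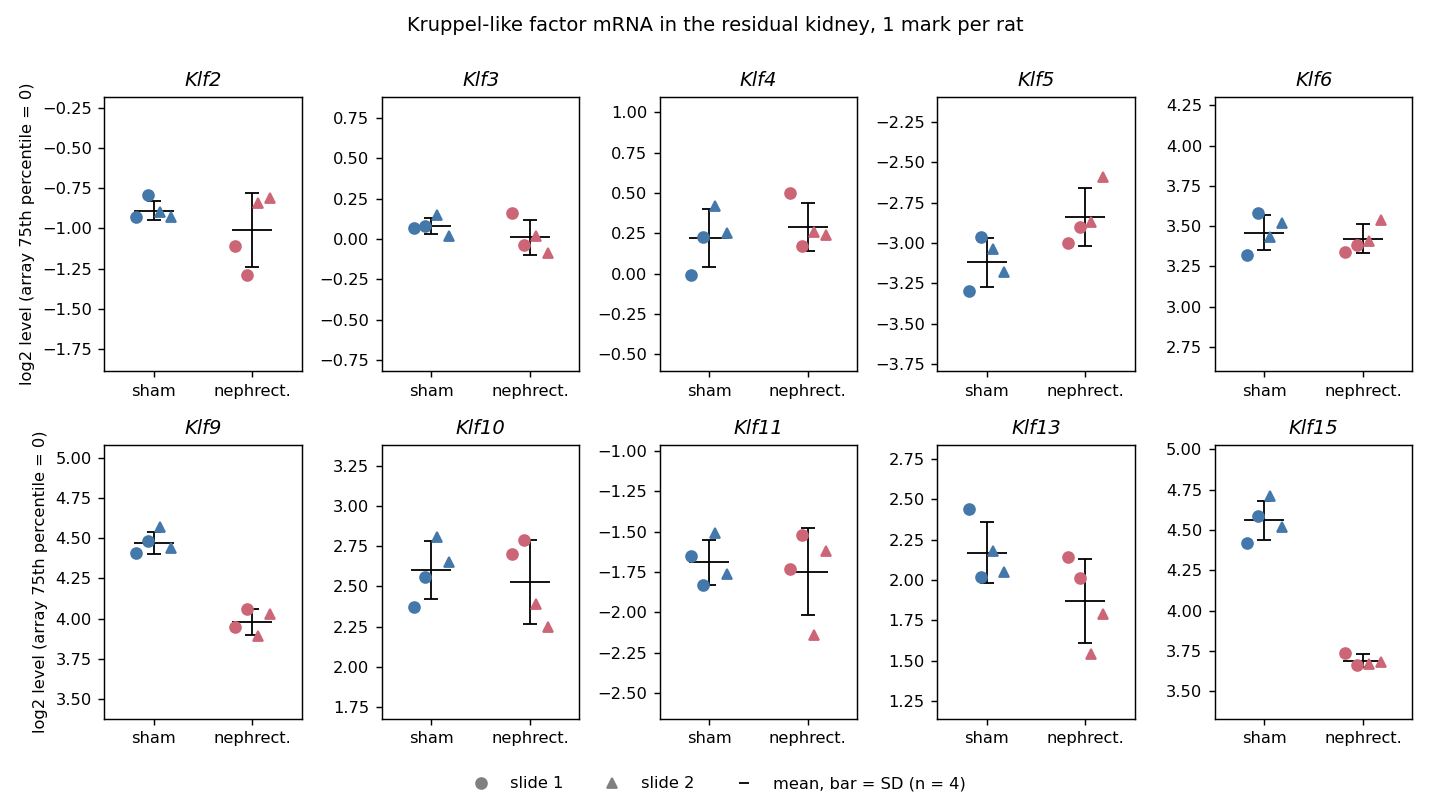
Log2 level of each member (brightest probe; 0 is the array's 75th percentile signal) in 4 sham and 4 nephrectomized rats, 1 mark per rat, circles for slide 1 and triangles for slide 2; black bars are the mean and SD, and each panel spans the same number of log2 units. Klf9 (sham 4.41 to 4.57, nephrectomized 3.89 to 4.06) and Klf15 (4.42 to 4.71 and 3.66 to 3.74) are the panels in which the groups do not overlap.

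The remaining members that can recruit Sin3, namely Klf10, Klf11 and Klf13, showed wide spreads or disagreement between probes or slides. Klf10, induced early by TGF-beta, had levels of 2.37, 2.56, 2.81 and 2.65 in sham rats and 2.70, 2.79, 2.39 and 2.25 in nephrectomized rats, a log2 difference of -0.06 (SE 0.14). Its order depended on the slide: the nephrectomized rats were higher by 0.28 on slide 1 and the difference was -0.41 on slide 2. The second Klf10 probe gave 0.33 and -0.34, so that both probes read the same split. The difference between the slides was -0.69 (unadjusted p = 0.00437) on the brighter and -0.67 (unadjusted p = 0.00832) on the second probe, each with adjusted p = 1 over all probes in a limma fit with an interaction of group and slide. That fit called 0 of 23985 probes, with 671 at an unadjusted p under 0.05, and it was added after the data were seen. Both probes read the same RNA of the same 8 kidneys and are not independent of each other.

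Klf11, a relative of Klf10 also induced by TGF-beta, had 2 probes that differed. The brighter one gave -1.65, -1.83, -1.51 and -1.76 in sham and -1.73, -1.52, -2.14 and -1.62 in nephrectomized rats, and the groups overlapped (log2 difference -0.06, SE 0.14). On the dimmer one the sham levels were -2.73, -2.45, -2.60 and -2.68 and the nephrectomized levels -3.43, -2.75, -2.84 and -2.92, without overlap and lower (-0.37, SE 0.15). That probe did not pass the threshold either. The probes carry different transcript accessions, and their mean gave a Klf11 log2 difference of -0.22. Klf13, known in T cells as an activator of the chemokine gene Ccl5, had a log2 difference of -0.30 (SE 0.15, 95% interval -0.63 to 0.03). Its sham levels were 2.44, 2.02, 2.18 and 2.05 and its nephrectomized levels 2.14, 2.01, 1.54 and 1.79. The groups overlapped, and sham rat 1 was the highest of all 8. The difference was -0.15 on slide 1 and -0.45 on slide 2.

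Klf3, the CtBP-recruiting repressor, stayed within a narrow range. Its sham levels were 0.02 to 0.15 and its nephrectomized levels -0.09 to 0.16 (log2 difference -0.07, SE 0.07, 95% interval -0.23 to 0.09). A second Klf3 probe gave -0.02 (SE 0.16) and was well above background on 7 of 8 arrays.

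Among the activators, Klf2 and Klf4 are known in endothelium, where laminar flow induces them, Klf5 in the epithelium of the collecting duct, and Klf6 as an early responder to tissue injury. Klf2 levels were -0.93, -0.79, -0.90 and -0.93 in sham rats and -1.11, -1.29, -0.84 and -0.81 in nephrectomized rats. The nephrectomized rats split by slide, below all sham rats on slide 1 and level with them on slide 2. The log2 difference was -0.33 on slide 1 and 0.09 on slide 2, and -0.12 over both (SE 0.11, 95% interval -0.38 to 0.13); the difference between the slides was 0.42 (unadjusted p = 0.0227, adjusted p = 1). Klf4 overlapped between the groups, from -0.01 to 0.42 in sham and from 0.17 to 0.50 in nephrectomized rats (log2 difference 0.07, SE 0.11). Its lowest value was that of sham rat 1, and without that rat its difference was no longer positive (-0.01).

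Klf5 was the one activator whose interval lay above 0. Its levels were -3.30, -2.96, -3.04 and -3.18 in sham rats and -3.00, -2.90, -2.87 and -2.59 in nephrectomized rats. Nephrectomized rat 1 lay below sham rat 2, and the other three were above every sham rat. The log2 difference was 0.28 (SE 0.11, 95% interval 0.03 to 0.52), or 1.21 times the sham level, and it did not pass over all genes. It was 0.18 on slide 1 and 0.38 on slide 2, and from 0.19 to 0.33 without single rats. The probe is dim, at 0.102 to 0.166 times the 75th percentile signal, and a second Klf5 probe was well above background on 1 of 8 arrays and was not tested.

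Klf6 was read by 5 probes, which all gave log2 differences at or below -0.04 and none past the threshold. They were -0.04 (SE 0.08), -0.12 (SE 0.16), -0.09 (SE 0.16), -0.13 (SE 0.08) and -0.04 (SE 0.08), from the brightest to the dimmest probe. On the brightest, the sham levels were 3.32, 3.58, 3.43 and 3.52 and the nephrectomized levels 3.34, 3.38, 3.41 and 3.54. The groups overlapped on all 5 probes. The next probe in brightness was highest in sham rat 1 (1.41), where the brightest was lowest.

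**Figure D2:**
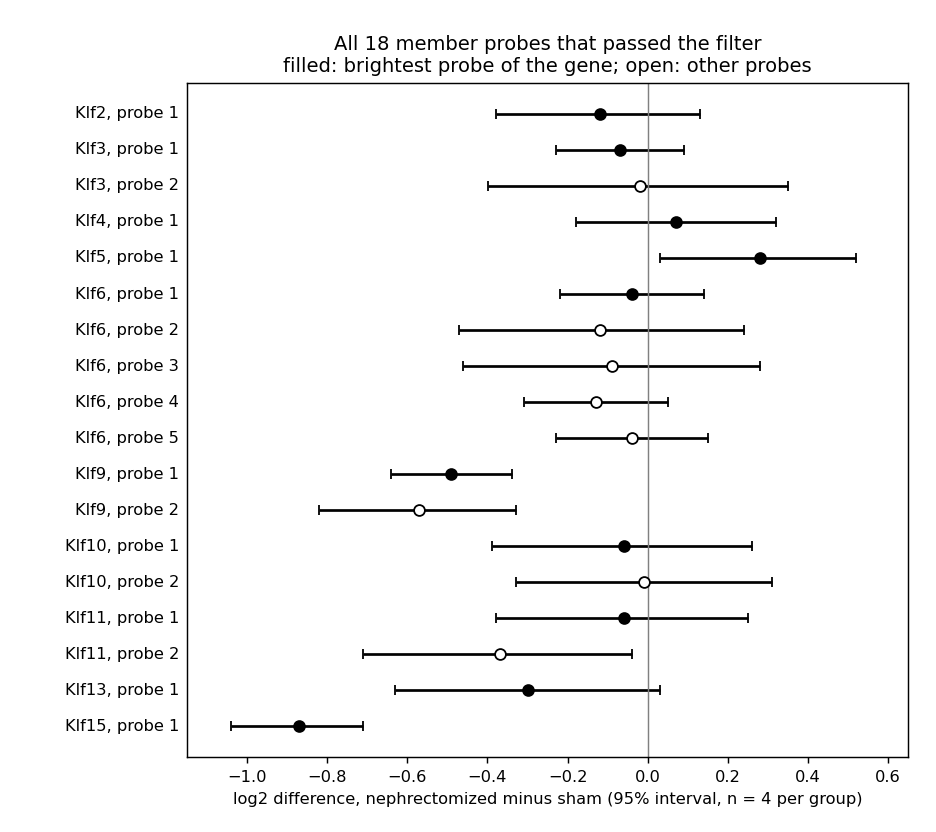
Log2 difference (nephrectomized minus sham, x axis) with its 95% interval for each of the 18 member probes that passed the filter on dim probes, numbered from the brightest within a gene. The intervals of Klf15 (-1.04 to -0.71 in the fit per probe), of both Klf9 probes (-0.64 to -0.34 and -0.82 to -0.33) and of the dimmer Klf11 probe (-0.71 to -0.04) lie below 0, and that of Klf5 (0.03 to 0.52) above.

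The slide was not part of how the family was chosen, so its effect could be tested. In a fit with group and slide, 0 of 10 members differed between slides (adjusted p from 0.463 for Klf13 to 0.971 for Klf9 by limma), and 0 of 10 had an unadjusted p under 0.05. Over all genes 0 of 19868 were called (0%), with 2184 (11.0%) at an unadjusted p under 0.05. Klf13 had the largest slide difference (-0.26, SE 0.12). Klf15 and Klf9 differed by 0.04 and 0.01 between slides (SE 0.07 each), and their group differences were as large within each slide: -0.80 and -0.94 for Klf15, and -0.44 and -0.54 for Klf9, on slides 1 and 2.

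**Figure D3:**
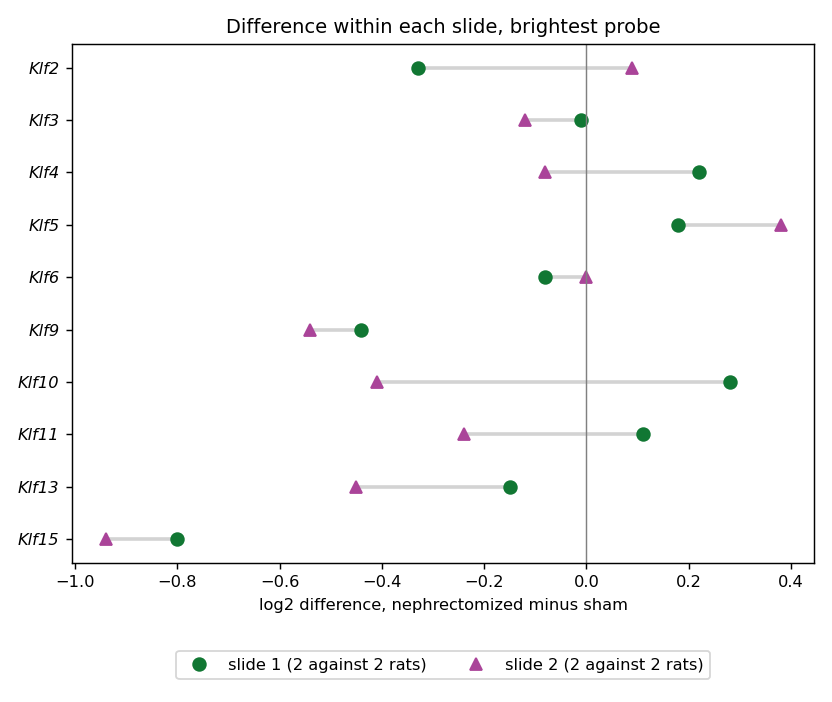
Log2 difference (nephrectomized minus sham, x axis) of the brightest probe of each member within slide 1 (circles) and slide 2 (triangles), each from 2 sham and 2 nephrectomized rats. Klf15 (-0.80 and -0.94) and Klf9 (-0.44 and -0.54) lie close together, while Klf10 (0.28 and -0.41) and Klf2 (-0.33 and 0.09) lie on opposite sides of 0, as do Klf4 (0.22 and -0.08) and Klf11 (0.11 and -0.24).

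The members also differed in how much the brightest probe varied between rats of a group. The residual SD was 0.07 for Klf9 and 0.09 for Klf15, at the percentiles 13.2 and 21.3 of all genes. Klf3 and Klf6, which were not called, had 0.09 and 0.10, at the percentiles 20 and 28.1. It was 0.17 for Klf2, 0.16 for Klf4 and 0.16 for Klf5. Klf13, Klf10 and Klf11 had 0.23, 0.22 and 0.22, at the percentiles 79.4, 77.7 and 76.2. The residual SD also enters the test that made the calls. It belongs to 1 probe per gene, and other probes could differ. The second Klf9 probe had an SD of 0.08 in sham and 0.22 in nephrectomized rats, against 0.07 and 0.08 on the brightest. For Klf10 the second probe had 0.23 and 0.21, against 0.18 and 0.26. The median was 0.16 over the members and 0.14 over all genes.

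The genes whose levels followed Klf15 and Klf9 most closely over the 8 arrays were found by the root mean square distance between centred log2 levels, among 9881 genes with a symbol. For Klf15 the nearest was Sult1a1, a sulfotransferase of phenols (distance 0.060, log2 difference -0.79), then Hrg, the histidine-rich glycoprotein (0.121, -0.71), and Rin2, a Rab5 regulator (0.124, -0.68). For Klf9 they were Fmo5, a flavin-containing monooxygenase (0.060, -0.45), Mt2A, a metallothionein (0.064, -0.54), and Clec2g, a C-type lectin (0.065, -0.47). This likeness holds the group difference itself, so it is a description of these 8 arrays.

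Of 15 other Klf and Sp genes listed, 9 had a probe matched by name and 3 passed the filter on dim probes. Their log2 differences were -0.05 (SE 0.08) for Klf16, -0.02 (SE 0.09) for Sp1 and -0.58 (SE 0.34) for Sp4, and 0 of 3 were called by limma or had an unadjusted p under 0.05. The probe of Klf1, the erythroid factor, was well above background in 3 sham and 2 nephrectomized rats, and that of Klf14 in none. Sp9, outside the list, was well above background in 3 sham and 4 nephrectomized rats, and its difference is not given.

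Partners that Klf proteins act through, and the ligases that degrade them, showed no call. Of 10 measured cofactors and ubiquitin ligases 0 passed (0 at an unadjusted p under 0.05), with a median log2 difference of -0.01. Wwp1, a ligase for Klf2 and Klf5, had -0.35 (SE 0.16, adjusted p = 0.293), and Ctbp1, the partner of Klf3, 0.10 (SE 0.06, adjusted p = 0.413). Of 16 upstream regulators 0 passed and 2 had an unadjusted p under 0.05: Bmal1, the clock activator (0.45, SE 0.15, adjusted p = 0.161), and Map2k5, the kinase that activates the Erk5 pathway upstream of Klf2 (-0.15, SE 0.06, adjusted p = 0.245). Nr3c1, the glucocorticoid receptor (named after its value was seen), had a log2 difference of 0.00 (SE 0.14, adjusted p = 0.996).

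Other glucocorticoid-induced genes also had lower means in the nephrectomized kidneys, some of them by very little. Of 14 measured, 6 were called lower, 0 were called higher and the other 8 did not pass, against 1.02% of all genes called lower. The log2 difference was below 0 in all 14 and in 50.1% of all genes, and 11 had an unadjusted p under 0.05 by limma. The median log2 difference was -0.56 (-0.61 on slide 1 and -0.43 on slide 2). Mt2A fell by 0.54 (SE 0.08, adjusted p = 0.0101) and Mt1, the other metallothionein, by 0.50 (SE 0.08, adjusted p = 0.0130), while Errfi1, a feedback inhibitor of the EGF receptor, fell by 0.69 (SE 0.12, adjusted p = 0.0157). Fkbp5, a co-chaperone of the receptor, fell by 0.73, Per1 by 1.29 and Tsc22d3, a leucine zipper protein, by 0.67, with adjusted p of 0.0403, 0.0465 and 0.0491. With 1 rat left out, the number called was 3 for sham rats 1 and 2 and nephrectomized rats 2 and 4, 4 for nephrectomized rats 1 and 3, 1 for sham rat 3 and 7 for sham rat 4. With dim probes kept in, it was 0.

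Clock genes, another group that moves with Klf9, Klf10 and Klf15 through the day, went both ways. Of 14 measured, 3 were called lower and 1 higher, against 1.02% of all genes called lower and 2.57% higher. The log2 difference was below 0 in 8 of the 14 and above 0 in 6, with a median of -0.12. Of the 14, 10 had an unadjusted p under 0.05 by limma, in both directions. Tef, an output factor, fell by 0.62 (SE 0.10, adjusted p = 0.0159) and Nr1d2, a repressor of Bmal1, by 0.37 (SE 0.07, adjusted p = 0.0275), as did Per1 above. Cry1, a repressor of the loop, rose 1.49-fold (log2 difference 0.57, SE 0.10, adjusted p = 0.0188). The number called was 0 without sham rat 3 or nephrectomized rat 4, 1 without sham rat 2 or 4, 2 without nephrectomized rat 1 or 3, 4 without sham rat 1 or nephrectomized rat 2, and 0 with dim probes kept in. The hour of sampling was not known here, and the part of these genes in the Klf differences was not tested.

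**Figure D4:**
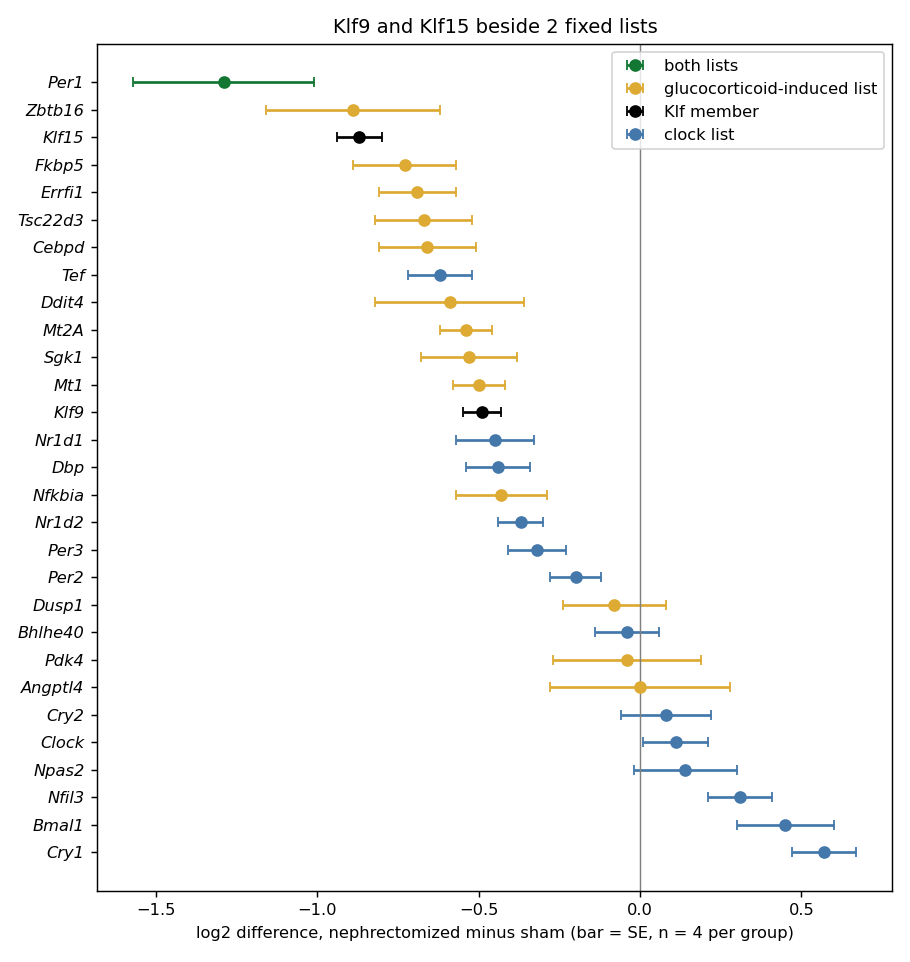
Log2 difference (nephrectomized minus sham, x axis; bars are the SE, n = 4 rats per group) of Klf9 and Klf15 (black) beside the measured genes of the glucocorticoid-induced list (gold), the clock list (blue) and both (green). Klf15 (-0.87) and Klf9 (-0.49) lie among the lower genes, in a range from Per1 (-1.29) to Cry1 (0.57).

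Genes downstream of the members were mixed. Of 10 metabolic and podocyte targets of Klf15, 1 was called lower and 0 higher, against 1.02% of all genes called lower and 2.57% higher. The log2 difference was below 0 in 6 of the 10 and above 0 in 4. The gene called was Gpt, alanine aminotransferase, which fell by 0.97 (SE 0.17, adjusted p = 0.0202 by limma). Gpt was well above background in 3 of 4 nephrectomized rats. It no longer passed when sham rat 2 (adjusted p = 0.0658), sham rat 4 (0.0614) or nephrectomized rat 4 (0.0594) was left out. Its probe met the filter only through the sham group, where it was brighter, and 0 of these targets were called when probes had to be well above background on all 8 arrays or when dim probes were kept in. The median over the 10 was -0.03. Of 7 endothelial targets of Klf2 and Klf4, 0 passed and 2 had an unadjusted p under 0.05, Ace, the angiotensin-converting enzyme (-0.62, SE 0.22, adjusted p = 0.193), and Kdr, a VEGF receptor (0.22, SE 0.09, adjusted p = 0.265). Without sham rat 1, 1 of them passed.

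Of 9 cell cycle genes that Klf4, Klf5 and Klf6 are known to regulate, 5 had a log2 difference above 0 and 4 below 0. Of the 9, 3 were called higher and 0 lower, against 2.57% of all genes called higher and 1.02% lower. They were Cdk1 (3.79-fold, adjusted p = 0.00233), Ccnb1 (3.58-fold, adjusted p = 0.00162) and Ccne1 (3.05-fold, adjusted p = 0.00108), and each also passed without any single rat. Cdkn1a, Cdkn1b and Cdkn1c, which inhibit cyclin-dependent kinases, named after their values were seen, did not pass (log2 differences 0.15, -0.16 and -0.30). Among genes of the TGF-beta response, which induces Klf10 and Klf11, Ccn2, a matricellular protein, fell by 1.09 (SE 0.17, adjusted p = 0.0126), and it passed with any 1 rat left out but not with dim probes kept in. Of 13 immediate early genes, the class to which Klf4, Klf6 and Klf10 are often counted, 0 passed and 4 had an unadjusted p under 0.05. The smallest p were those of Atf3 (0.37, SE 0.11, adjusted p = 0.12) and Myc (-0.38, SE 0.13, adjusted p = 0.167). Fos, named after its value was seen, was also among the 4 (0.61, SE 0.23, unadjusted p = 0.0269 by limma). Its probe was well above background in 3 sham and 4 nephrectomized rats. It met the filter only through the nephrectomized group, where it was brighter.

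Markers of the labelled tissue were present: all measured markers of proximal tubule (7), podocyte (6) and collecting duct (7) passed the filter, and 0 of 5 liver and skeletal muscle genes did. In bulk RNA, fewer cells of a type and less RNA per cell cannot be told apart. Endothelial markers, beside Klf2 and Klf4, averaged -0.07 to -0.01 in sham and -0.18 to -0.07 in nephrectomized rats (9 of 10 measured). Of the 9, 3 had a log2 difference above 0 and 6 below 0, and 4 had an unadjusted p under 0.05 by limma, in both directions. Of them 1 was called, lower (Vwf, -0.32, adjusted p = 0.0467, and from 0.0594 to 0.144 when any 1 rat was left out). Podocyte markers, beside Klf15, averaged 0.49 to 1.51 in sham and 1.18 to 1.46 in nephrectomized rats (6 of 6 measured), and the low end is 1 value of Nphs1 in sham rat 3 (-3.33). Proximal tubule markers averaged 6.13 to 6.16 in sham and 5.96 to 6.14 in nephrectomized rats over the 6 with no missing value, and 0 of 7 were called (0 at an unadjusted p under 0.05). Markers of thick ascending limb and distal tubule (4), leukocytes (4 of 8), fibroblasts and smooth muscle (7) and collecting duct had 0 called, and their averages overlapped between the groups. The part of these markers in the Klf differences was not tested. Between 54.8% (sham rat 1) and 65.5% (nephrectomized rat 4) of gene probes were well above background, no gene probe was saturated, and 4 arrays per group limit the precision of each value.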

How the data were processed

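The members and the gene lists were chosen with earlier results of these data known. The authors scanned 1 array per rat and read it with Agilent Feature Extraction 10.5.1.1, as stated per the file headers. The deposited scanner output gives spot brightness as an intensity, background-subtracted and detrended within the array. A further deposited table has log2 values of 30448 probes, which correlate with the values computed here centred on each probe's median (r = 0.9999 for each array, across probes).

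Log2 intensity was averaged over spots without outlier marks, and each array's 75th percentile over gene probes was subtracted. A probe was kept when it was well above background on every array of 1 group or of both (a probe with several spots counted by a share of at least 0.5), which held 18 of the 19 member probes. A RefSeq accession gave 18713 of 41012 probes a symbol (RefSeq gene table, GRCr8); the other genes kept their accession. The brightest probe stood for a gene.

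The comparison used limma 3.58.1 (lmFit with eBayes, two-sided; R 4.3.3, threshold 0.05, Benjamini-Hochberg over all genes), checked on simulated data. The labels call the samples replicates 1 to 4 and the series text counts 4 rats; no 2 arrays held the same values (SD of log2 differences 0.531 to 0.778). Alternatives were other scalings, normexp, the deposited table, other filters and probe rules, slide and replicate blocks, a trend, and each rat left out. Named genes are all members with each of their probes, the measured Klf and Sp genes of a fixed list, up to 6 called genes of each list (or the 2 with the smallest p), and the 3 nearest genes to each called member. Genes named outside this rule are said to be, apart from counts and cell type markers. The result of 1 gene of the TGF-beta list, and the count of that list, are not reported here.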

Additional observations from a re-analysis of the deposited data

How the results depend on the processing

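Klf15 and Klf9 were called, and the other 8 members were not, in each of the 18 alternative fits per gene. Testing every probe on its own also called 2 members. Over those settings the Klf15 difference ran from -0.92 to -0.82 and the Klf9 difference from -0.53 to -0.46. All of these fits use the contrast by which the family was chosen, so they describe the members and do not test them. The members that moved by more than their SD did so within slides, Klf2 (-0.33 on slide 1 and 0.09 on slide 2) and Klf10 (0.28 and -0.41); the cause was not tested. Counts over all genes moved more than those of the members. Against 714 genes called, 282 were called without the filter on dim probes, where 35237 genes were tested, and the counts shared 251 genes. Leaving out single rats gave 341 to 666 genes, 2 to 2 members and 6 to 13 list genes, against 15 list genes with all rats. Without the dim filter 3 list genes were called.

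Rats of the 2 groups that share a replicate number showed no clear likeness: their deviations correlated at 0.10, 0.01, 0.10 and -0.02 across genes. Differently numbered rats ranged from -0.29 to 0.27. With 4 rats per group, these values cannot settle whether the numbers pair the rats. With the replicate number as a block 296 genes, 5 list genes and 2 members were called, Klf9 at adjusted p = 0.0496 and Klf15 at 0.0267 by limma. That block left 0 glucocorticoid-induced genes, 2 clock genes, 0 targets of Klf15 and 3 cell cycle genes called, and Ccn2 was not called. Not every rat correlated best with its own number. The dimmer Klf3 probe was not well above background on 1 array.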

Other observations

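Sham rat 1 had the lowest level of its group in 7 of the 10 members and the highest in 1 (Klf13), and sham rat 3 had the highest in 6 and the lowest in 0. Among nephrectomized rats no such lean was as large: the highest level fell to rat 1 in 4 members, to rat 2 in 3 and to rat 4 in 3. These counts were read on the brightest probes, and whether all genes lean the same way was not tested. Sham rat 1 was also the array with the fewest probes well above background (54.8%). For Klf2 its rounded level equalled that of sham rat 4 (-0.93). None of the 20 sets of 4 levels held a value far enough from the others to be marked by Dixon's criterion. The closest was nephrectomized rat 1 in Klf15, whose gap to the next rat was 0.804 of the group's range, at a level of 3.74 against 3.66 to 3.68.

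The 7 member promoters with a sequence differed in composition. Each was read as 1 window before 1 annotated start, and whether the kidney uses that start was not tested. Klf11 held GGGCGG 7 times and was 79.2% G or C, against 30.5% of all promoters with at least 1 match, and Klf6 held it once. Klf3 held CACCC 4 times, all on the reverse strand. The Klf4 window, at 43.2% G or C, held neither GGGCGG nor CACCC. It held TATAAA 2 times, both on the reverse strand, 146 and 78 bases before the start. That motif was in 12.9% of all promoters. CACGTG was found in Klf6, Klf11 and Klf15.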
